A study of Rattus norvegicus with 325 samples.

Results

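Interleukin-6 (IL-6) family cytokines signal through a small set of receptors to the transcription factor Stat3, and 8 genes of this route were followed in ageing rat muscle: Il6, Il6st, Osmr, Lifr, Stat3, Socs3, Cebpb and Cebpd. They were taken by gene symbol from the 17315 symbols of the count files, and each was found on 1 line. Bulk RNA was sequenced from libraries of diaphragm (83), gastrocnemius (73), soleus (84) and tibialis anterior (85) muscle from male Sprague Dawley rats aged 6, 9, 12, 18, 21, 24 or 27 months, with 9 to 13 libraries per muscle and age. No group carried an allele or a drug. The rats were aged at the supplier, and the tissues of 1 age were taken on 1 day, so an age effect and a day effect cannot be told apart. The labels do not say which animal gave which library, so libraries of different muscles may share an animal. In bulk tissue, fewer cells of a type and less RNA per cell cannot be told apart.

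IL-6 is a secreted protein that contracting muscle, macrophages and other cells release. It binds its own receptor chain and then the shared chain gp130, encoded by Il6st, whereas oncostatin M and leukemia inhibitory factor bring gp130 together with the receptors encoded by Osmr and Lifr. Janus kinases on these receptors phosphorylate Stat3, which enters the nucleus and switches on genes that include Socs3, whose product shuts the receptor down again. C/EBP beta (Cebpb) and C/EBP delta (Cebpd) are transcription factors that are induced in acute-phase and stress responses and can act on the Il6 gene itself. In muscle the route is known for roles in satellite cell activation, in regeneration and in wasting.

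The Il6 promoter is shown because elements for C/EBP factors lie in it, and Cebpb was first known as a factor that binds there. The stretch runs from 170 to 101 bases before the transcription start in the RefSeq annotation of the rat build GRCr8 (chr4:5894676-5894745, minus strand, 70 bases), with matches to 2 motifs in capitals. They are, from the left, the cyclic AMP response element TGACGTCA and the C/EBP motif TTGNNCAA.
Il6 promoter: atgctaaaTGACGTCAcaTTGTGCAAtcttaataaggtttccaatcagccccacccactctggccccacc

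Both strands of 33469 promoter windows were searched, and these motifs do not overlap in Il6. The windows were equal in length, longer than the stretch shown, and ran past the transcription start. The response element was present in 1.83% of the windows and the C/EBP motif in 5.98%. A window was found for 7 of the 8 genes, and of these 7 only Il6 held either motif. The Stat motif TTCNNNGAA was present in 8.87% of all windows and in 0 of the 7. The capitalized motifs were chosen after the Il6 sequence had been seen.

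Library totals ran from 17.6 to 85.3 times 1000000 counts, with a median of 31.9 times 1000000. The muscles carried their own fibre genes: median Myh7, the slow myosin heavy chain, was 47514 CPM (the count per 1000000 counts of the library) in the soleus at 6 months and 2062 CPM in the tibialis anterior, whereas Myh4, a fast one, was 8.39 and 87432 CPM. From the running numbers in the labels the libraries fall into 3 series. All gastrocnemius libraries are in 1 series of their own, and all 12-month libraries of the other muscles and 1 of their 21-month libraries each are in another, so gastrocnemius against other muscles and 12 against 6 months cannot be told apart from series. Levels below are CPM scaled by TMM, a method that centres the bulk of genes. With scaling to the total count instead, the median change of all genes from 6 to 27 months moved up by 0.28 on the log2 scale in gastrocnemius, 0.15 in soleus and 0.32 in tibialis anterior, and by 0.04 in diaphragm. The share of higher genes among all calls then moved from 66.0 to 90.0% in gastrocnemius, from 61.4 to 77.7% in soleus and from 62.4 to 89.1% in tibialis anterior.

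The first comparison asked how each gene differed between 6 months and later ages within a muscle. A gene was called when limma-voom gave a Benjamini-Hochberg adjusted p under 0.05 over all genes tested and a change above 1.5-fold. By 27 months the tibialis anterior had more Stat3, Il6st, Osmr and Socs3 and less Lifr RNA, the gastrocnemius had less Lifr, the soleus had more Il6 and Socs3, and the diaphragm had no call. Counted over the genes that passed the filter on low counts, 5 of 7 were called in tibialis anterior (4 higher, 1 lower), where 27.6% of all genes tested were called. In gastrocnemius 1 of 7 was called, in the lower direction, beside 22.8% of all genes. Soleus had 2 of 8, both higher, beside 15.0%, and diaphragm had 0 of 8 beside 7.52%. Il6 did not pass the filter in gastrocnemius and tibialis anterior.

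Calls before 27 months were few and came from the same muscles. Gastrocnemius had 0 genes at 9, 12 and 18 months, Cebpd at 21 months, and Osmr and Cebpd at 24 months, beside 0.143, 0.885, 4.32, 5.81 and 18.8% of all genes at these ages. Tibialis anterior had 0 at 9, 12 and 18 months, Cebpd at 21 months, and Stat3 and Cebpd at 24 months, beside 0.00851, 0.196, 5.45, 6.47 and 14.5%. Soleus and diaphragm had 0 throughout, beside 0.123, 0.353, 2.84, 2.61 and 6.51% in soleus and 0.108, 0.532, 2.25, 1.68 and 2.68% in diaphragm.

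**Figure D1:**
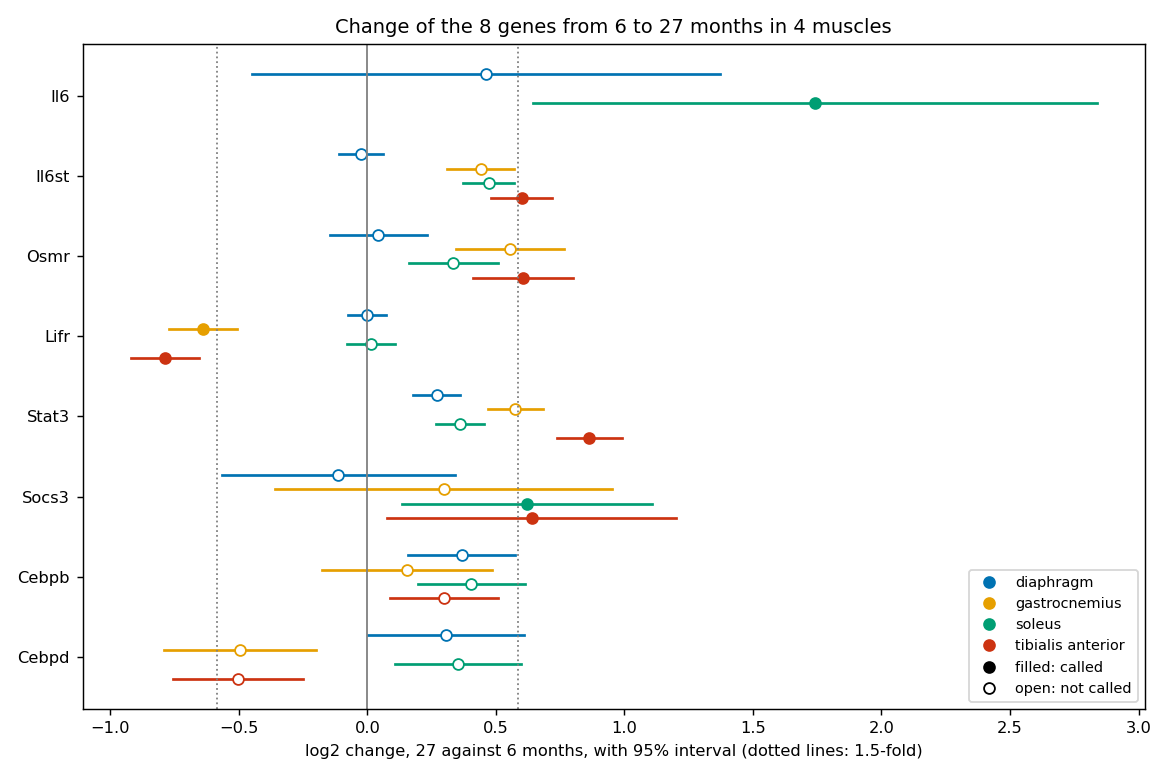
Change of the 8 genes from 6 to 27 months on the log2 scale (x axis), by gene (y axis) and muscle (color), with 95% intervals as bars; filled points were called, open points were not, and dotted lines mark 1.5-fold. Lifr lies left of 0 in gastrocnemius (-0.64) and tibialis anterior (-0.79) and near 0 in the other muscles, and Stat3 lies right of 0 in all 4.

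Il6, the ligand, was close to the limit of detection. It had 0 counts in 22 libraries, where 3 counts of the library total are the most that a count of 0 allows, and no library had more than 49 counts. In the soleus its level at 6 months had a lowest value of 0, a median of 0.0839 and a highest value of 0.793 CPM (0 to 28 counts), and at 27 months these were 0.164, 0.295 and 0.848 CPM (6 to 32 counts). All 12 libraries at 27 months lay above the median at 6 months, but the ranges overlapped and only 1 lay above every 6-month library. The log2 change was 1.74 ± 0.56 (SE, n = 12 and 12) with a limma-voom adjusted p of 0.0063. It was 1.16 and 1.18 with adjusted p of 0.098 and 0.10 by edgeR and DESeq2, and 1.48 with 0.052 when the replicate number was a block, so the call ended under each of these.

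At 9 to 24 months the soleus change of Il6 ran from -0.27 to 0.35 with no call. The diaphragm had a median of 0.120 CPM at 6 months, 0.343 at 21 months and 0.151 at 27 months, and its change at 21 months was 1.03 with an adjusted p of 0.16. Fitted with no filter on low counts, Il6 changed by 0.96 (adjusted p = 0.024) in gastrocnemius at 27 months, where medians went from 0.0928 to 0.211 CPM. The same fit gave 1.10, 1.11 and 0.86 in tibialis anterior at 18, 24 and 27 months, with adjusted p of 0.016, 0.0083 and 0.034.

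Il6st, the chain that most receptors of the family share, was higher late in life in the 3 limb muscles and level in the diaphragm. Tibialis anterior libraries ran from 391 through a median of 421 to 437 CPM at 6 months and from 458 through 644 to 780 CPM at 27 months, with no overlap. The log2 change was 0.60 ± 0.06 (adjusted p = 1.8e-14). At 24 months it was 0.36 ± 0.06, again with no overlap, and was not called. In soleus the 6-month values were 489, 546 and 604 CPM (lowest, median, highest) and the 27-month values 530, 755 and 979 CPM, a change of 0.47 ± 0.05 with 11 of 12 libraries above all at 6 months. The gastrocnemius went from 319, 344 and 397 CPM to 357, 457 and 594 CPM, a change of 0.44 ± 0.07. Both of these passed the p threshold (4.3e-13 and 4.4e-08) but fell short of 1.5-fold and were not called; with scaling to the total count they reached 0.62 and 0.72 and were called. The diaphragm change was -0.03 ± 0.04, with medians of 443 and 428 CPM.

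For Il6st in tibialis anterior the 1.5-fold limit decided the call. Without 27-month replicate 0, 5, 6, 7 or 8 in turn the change was 0.57 to 0.58, just short of the limit, with adjusted p of at most 1.6e-13.

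Osmr, the receptor chain for oncostatin M, rose in tibialis anterior and, at 24 months, in gastrocnemius. In tibialis anterior its 12 libraries ran from 12.6 to 17.6 CPM at 6 months with a median of 15.0, and from 17.9 to 29.2 CPM at 27 months with a median of 22.0. All 27-month libraries were above all 6-month ones, and the change was 0.60 ± 0.10 (adjusted p = 9.2e-08). This call too sat at the fold limit: leaving out 27-month replicate 4, 5 or 6 or 6-month replicate 1 or 2 gave 0.57 to 0.58. Gastrocnemius Osmr was called at 24 months, with 9.39, 11.6 and 16.5 CPM at 6 months and 13.3, 18.9 and 21.4 CPM at 24 months (change 0.60 ± 0.11, adjusted p = 7.7e-06). That call was lost without 6-month replicate 1 (0.54) or 7 (0.58), and 24-month libraries were not left out in turn. At 27 months it was 0.56 ± 0.11, which was not called, and leaving out 27-month replicate 1 or 6-month replicate 5 or 8 brought it to 0.59 to 0.61. Soleus Osmr changed by 0.33 ± 0.09 at 27 months and diaphragm Osmr by 0.04 ± 0.10, and neither was called.

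Lifr, the receptor chain for leukemia inhibitory factor, fell in gastrocnemius and tibialis anterior and in neither of the others. Tibialis anterior values were 202, 213 and 224 CPM (lowest, median, highest) at 6 months and 93.5, 123 and 164 CPM at 27 months. Gastrocnemius values were 165, 188 and 205 CPM at 6 months and 90.6, 124 and 136 CPM at 27 months. In both muscles every library at 27 months lay below every library at 6 months. The change was -0.79 ± 0.07 in tibialis anterior (adjusted p = 1.7e-17) and -0.64 ± 0.07 in gastrocnemius (adjusted p = 6.2e-13). Under total-count scaling these became -0.47 and -0.36, still with adjusted p of 6.5e-15 and 7.1e-06 but short of 1.5-fold. The summed level of 6 muscle fibre genes, Myh4 and Ckm among them, went from 160588 to 187260 CPM at 6 months to 56144 to 155772 CPM at 27 months in tibialis anterior and from 146721 to 205771 CPM to 71593 to 134096 CPM in gastrocnemius, and its part in the scaling was not tested.

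The fall of Lifr came late. In tibialis anterior the changes were 0.06, -0.04 and -0.13 at 12, 18 and 21 months, with adjusted p of 0.15 or more, and then -0.40 at 24 months (adjusted p = 1.3e-06). Gastrocnemius gave -0.42 at 24 months (adjusted p = 7.4e-07), after values from -0.06 to -0.11 at the earlier ages. The soleus moved the other way in mid life, from a median of 151 CPM at 6 months to 174 CPM at 18 months (0.19 ± 0.05, n = 12 and 12, no overlap, not called) and back to 150 CPM at 27 months. The diaphragm stayed between medians of 187 and 199 CPM at all ages.

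**Figure D2:**
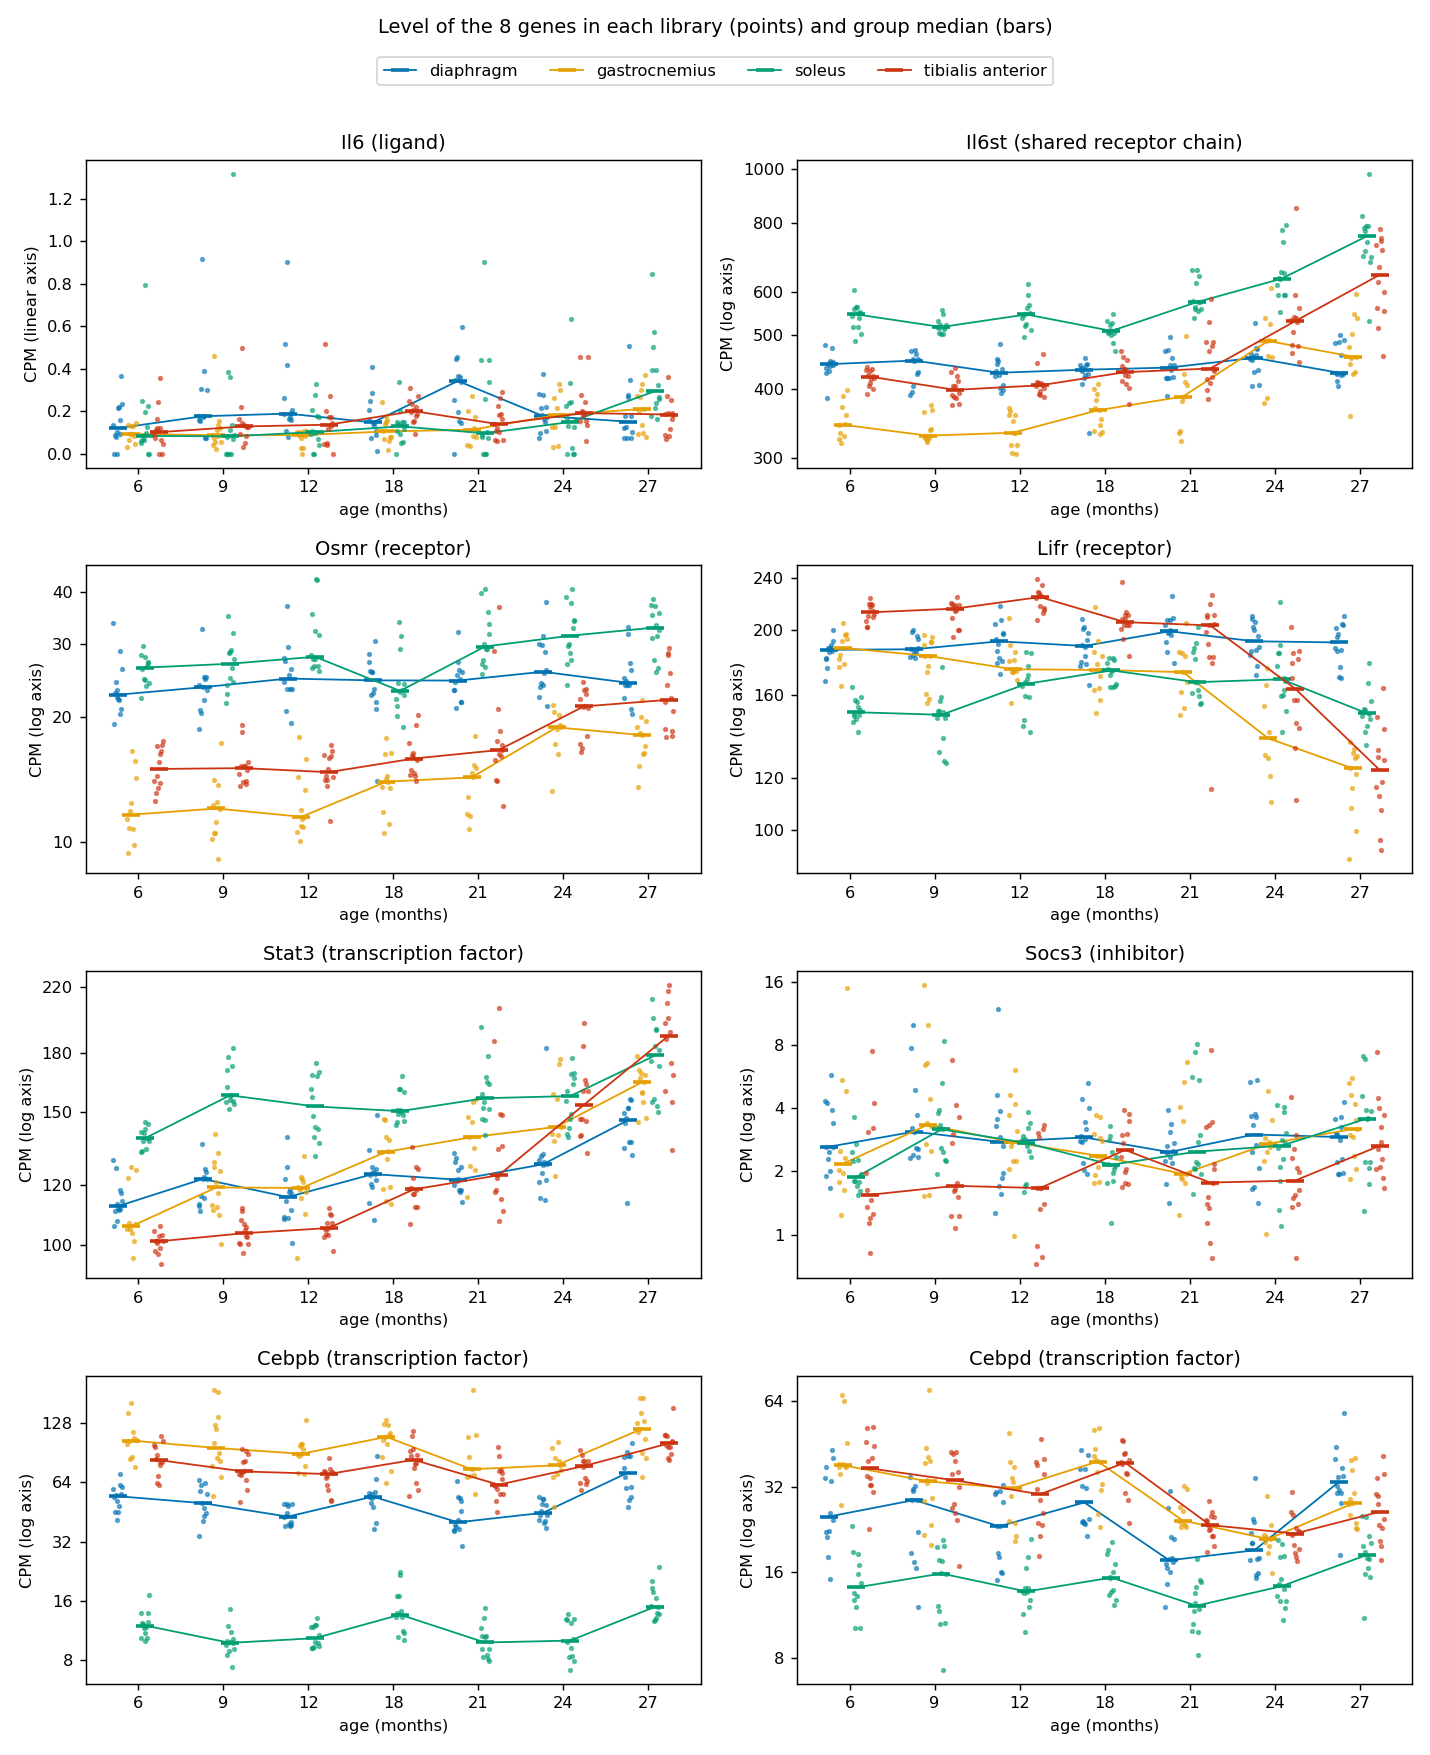
Level of each of the 8 genes in CPM (y axis, log scale except for Il6) at each age in months (x axis); each point is 1 library, bars and lines are group medians, and color is the muscle. Lifr drops after 21 months in gastrocnemius and tibialis anterior, Stat3 climbs in tibialis anterior from a median of 101 to 190 CPM, and Cebpb in soleus lies below the other muscles at all ages.

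Stat3, the transcription factor at the centre of the route, was higher at 27 months in every muscle, and the size of the difference depended on the muscle. The tibialis anterior went from 94.2, 101 and 106 CPM at 6 months to 134, 190 and 222 CPM at 27 months, a change of 0.86 ± 0.06 (adjusted p = 1.2e-20). Here the 6-month libraries lay below every library at 18, 21, 24 and 27 months, with changes of 0.25, 0.42, 0.63 and 0.86, and the last pair was called. In gastrocnemius the values were 96.0, 106 and 127 CPM and then 146, 164 and 178 CPM, again with no overlap (0.58 ± 0.05, adjusted p = 1.6e-14). This stood just short of 1.5-fold, and it was called with total-count scaling (0.86), with sample quality weights (0.62) and without 27-month replicate 1 or 10 or 6-month replicate 1 or 9 (0.59 each). Soleus Stat3 was 133, 139 and 146 CPM at 6 months and 150, 179 and 212 CPM at 27 months (0.36 ± 0.05). Diaphragm Stat3 was 106, 113 and 130 CPM and then 114, 147 and 156 CPM (0.27 ± 0.05, adjusted p = 1.7e-06). In soleus every library at 9 months (0.23, adjusted p = 0.012) and at 27 months lay above every library at 6 months, and in diaphragm 11 of 12 libraries at 27 months lay above all at 6 months, but neither was called.

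Socs3, the feedback inhibitor, was low and spread widely between libraries of 1 group, with 22 to 210 counts per library in the tibialis anterior at 6 months. Soleus values were 1.54, 1.88 and 3.62 CPM at 6 months and 1.30, 3.57 and 7.12 CPM at 27 months (0.62 ± 0.25, adjusted p = 0.029). Tibialis anterior values were 0.821, 1.55 and 7.51 CPM and then 1.67, 2.66 and 7.43 CPM (0.64 ± 0.29, adjusted p = 0.040). The groups overlapped in both muscles. The soleus call was lost when 27-month replicate 0, 1, 3 or 5 or 6-month replicate 10 was left out (0.50 to 0.58, adjusted p = 0.049 to 0.082). That in tibialis anterior was lost without 12 of the 24 libraries taken singly (27-month replicates 1, 3, 4, 6 and 11 and 6-month replicates 1, 2, 4, 5, 6, 7 and 10; lowest 0.55), and under edgeR (0.42) and DESeq2 (0.42), with adjusted p of 0.21 and 0.22. With the replicate number as a block it was 0.57 (adjusted p = 0.072). The gastrocnemius gave 0.30 ± 0.34, which turned to -0.11 by edgeR and -0.13 by DESeq2, and the diaphragm gave -0.11 ± 0.23.

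Cebpb was not called at any age in any muscle, although with total-count scaling it was called in tibialis anterior at 27 months (0.62, adjusted p = 5.8e-07). Its medians at 6 and 27 months were 54.4 and 71.7 CPM in diaphragm, 104 and 119 CPM in gastrocnemius, 12.0 and 14.9 CPM in soleus, and 83.0 and 101 CPM in tibialis anterior. The change at 27 months was 0.37 ± 0.11, 0.15 ± 0.17, 0.40 ± 0.11 and 0.30 ± 0.11 in this order, with adjusted p of 0.0032, 0.44, 7.6e-04 and 0.010. At 21 months the values had the other sign in all 4 muscles, from -0.26 to -0.36.

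Cebpd fell in gastrocnemius and tibialis anterior at 21 and 24 months. Gastrocnemius libraries ran from 27.7 through 38.1 to 66.9 CPM at 6 months, from 23.0 through 24.3 to 32.3 CPM at 21 months, and from 15.9 through 21.0 to 29.6 CPM at 24 months. The changes were -0.67 ± 0.16 (adjusted p = 0.0014) and -0.98 ± 0.17 (adjusted p = 8.7e-07). Tibialis anterior libraries had 22.8, 37.1 and 51.8 CPM at 6 months, 18.9, 23.4 and 28.5 CPM at 21 months, and 17.5, 21.9 and 30.7 CPM at 24 months, with changes of -0.66 ± 0.13 (adjusted p = 4.9e-05) and -0.78 ± 0.13 (adjusted p = 4.1e-07). No library at 21 or 24 months in either muscle reached the 6-month median, though the ranges overlapped. Under total-count scaling the 21-month values were -0.54 and -0.58 and no longer called. The gastrocnemius call at 21 months also ended with Bonferroni adjustment (limma-voom adjusted p = 0.95). At 21 and 24 months 5.81 and 18.8% of all genes were called in gastrocnemius, and 6.47 and 14.5% in tibialis anterior.

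At 27 months Cebpd stood at -0.50 in both muscles and was not called. In diaphragm and soleus it was at 0.31 and 0.35 at that age, also not called. Diaphragm Cebpd at 21 months was -0.53 ± 0.17 (adjusted p = 0.033), which is short of 1.5-fold, from a median of 25.1 to 17.6 CPM.

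The shape of the change over the 7 ages was classed by comparing a flat, a straight and a 4-parameter logistic curve by the Bayesian information criterion, for genes called at any age. Osmr rose along a straight line in both gastrocnemius and tibialis anterior, by 0.029 and 0.028 on the log2 scale per month. Lifr followed a late logistic fall in both, with the inflection at 23.75 and 27 months. Stat3 and Il6st rose along late logistic curves in tibialis anterior, with inflections at 27 and 26 months. Cebpd fell along a straight line in gastrocnemius and along a logistic curve with its inflection at 19.75 months in tibialis anterior. An inflection at 27 months is the end of the range searched. In all, 3 genes in gastrocnemius and 5 in tibialis anterior were called with a trend, beside 23.4 and 26.7% of all genes. Soleus and diaphragm had 0, beside 12.6 and 6.71%. With total-count scaling Lifr and Cebpd no longer had a call with a trend in either muscle. The genes that did were then Il6st, Osmr and Stat3 in gastrocnemius, Il6st, Osmr, Stat3 and Cebpb in tibialis anterior, and Il6st in soleus, all upward.

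The second comparison asked whether the change from 6 to 27 months differed between muscles, in 1 fit over all libraries and 12784 genes. Lifr and Cebpd were called in the same 4 pairs of muscles, and in these the fast limb muscles stood against diaphragm and soleus. For Lifr the difference was -0.84 ± 0.08 for tibialis anterior minus diaphragm, -0.79 ± 0.08 for tibialis anterior minus soleus, -0.69 ± 0.08 for gastrocnemius minus diaphragm, and 0.65 ± 0.08 for soleus minus gastrocnemius, with adjusted p of at most 1.9e-12. For Cebpd the same differences were -0.86, -0.84, -0.85 and 0.84, each ± 0.20 to 0.21, with adjusted p of 8.8e-05 to 6.0e-04. Each of these 4 pairs thus had 2 of the 8 genes called, where 20.3, 15.8, 21.6 and 14.5% of all genes were called. Total-count scaling took 3 of these Lifr differences (all but tibialis anterior minus soleus) and the 2 Cebpd differences against diaphragm under 1.5-fold. With Bonferroni adjustment none of the 4 Cebpd differences was called (limma-voom adjusted p of 0.24 or more), while those of Lifr stayed called.

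In the main fit Stat3 and Il6st differed between muscles by less than 1.5-fold, with Il6st in tibialis anterior minus diaphragm just short of it. The Stat3 change was larger in tibialis anterior than in diaphragm by 0.55 ± 0.08, than in soleus by 0.52 ± 0.08 and than in gastrocnemius by 0.29 ± 0.08 (adjusted p = 1.4e-10, 2.1e-09 and 0.0020). That of Il6st was larger than in diaphragm by 0.58 ± 0.08 in tibialis anterior, by 0.44 ± 0.08 in soleus and by 0.41 ± 0.08 in gastrocnemius (adjusted p of at most 1.8e-06). For gastrocnemius against tibialis anterior no gene was called, beside 7.32% of all genes. The interval of this difference for Lifr, tibialis anterior minus gastrocnemius, was -0.30 to 0.01. For soleus against diaphragm no gene was called either, beside 11.9%. The Il6 difference for soleus minus diaphragm was 1.21 ± 0.62, with an adjusted p of 0.12, and that of Socs3 was 0.68 ± 0.38, with an adjusted p of 0.15, so the soleus calls for these genes were not shown to differ from the diaphragm.

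The third comparison ordered the muscles at 6 months. The widest differences were those of Cebpb and Cebpd, which were lowest in the soleus. Cebpb had medians of 104 CPM in gastrocnemius, 83.0 in tibialis anterior, 54.4 in diaphragm and 12.0 in soleus, and the highest soleus library (17.1 CPM) lay below the lowest of any other muscle (41.2 CPM). Soleus minus gastrocnemius was -3.13 ± 0.14 on the log2 scale. The neighbours in this order, tibialis anterior minus gastrocnemius, stood at -0.34, under the fold limit. Cebpd had the same order with 38.1, 37.1, 25.1 and 14.2 CPM, and soleus minus gastrocnemius was -1.51 ± 0.15. Gastrocnemius and tibialis anterior were not shown to differ (adjusted p = 0.39). Of the calls for gastrocnemius minus diaphragm, Cebpd went from 0.64 to 0.20 and Cebpb from 0.98 to 0.55 with total-count scaling, and both calls ended; that of Cebpd also ended with quality weights (0.54) and Bonferroni adjustment. For tibialis anterior minus diaphragm, Cebpb went from 0.65 to 0.20 with total-count scaling and its call ended.

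The receptors had another order. Osmr was highest in soleus (26.3 CPM) and diaphragm (22.6 CPM), which were not shown to differ (adjusted p = 0.18), and lower in tibialis anterior (15.0 CPM) and gastrocnemius (11.6 CPM). Il6st was highest in soleus (546 CPM) and lowest in gastrocnemius (344 CPM), which differed by 0.62 ± 0.06. Lifr was highest in tibialis anterior (213 CPM) and lowest in soleus (151 CPM), and Stat3 was highest in soleus (139 CPM) and lowest in tibialis anterior (101 CPM). Neither gene was called in any pair of muscles. Socs3 was called lower in tibialis anterior than in diaphragm (-0.63 ± 0.30, adjusted p = 0.049), which was lost by edgeR (-0.38) and DESeq2 (-0.41), with no filter (adjusted p = 0.062), with quality weights (-0.51), with Bonferroni adjustment and with the replicate number as a block (-0.54). Il6 was called in no pair. The counts were 4 of 8 for soleus against gastrocnemius, 3 for gastrocnemius against diaphragm, for tibialis anterior against diaphragm and for tibialis anterior against soleus, 2 for soleus against diaphragm, and 0 for tibialis anterior against gastrocnemius. Of all genes, 45.4, 37.3, 35.1, 42.9, 23.9 and 17.3% were called in these pairs.

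The genes were next compared between libraries of the same muscle and age, as deviations from the mean of the age group on the log2 CPM scale, over 28 pairs of genes in each of the 4 muscles. With 100000 permutations within age groups, 30 relations had a Benjamini-Hochberg adjusted p under 0.05 for Pearson's r over all pairs and muscles. Of these, 29 also passed for Spearman's rho, the exception being Stat3 and Socs3 in diaphragm (permutation adjusted p = 0.17). The share of all pairs of genes that vary together in this way was not tested. The receptors Il6st and Osmr rose and fell together in every muscle, with Pearson r of 0.57 in diaphragm, 0.56 in gastrocnemius, 0.37 in soleus and 0.53 in tibialis anterior (Spearman rho 0.47, 0.56, 0.35 and 0.47; permutation adjusted p = 8e-05, the smallest these permutations can give, in all but soleus with 0.0028). Without the 2 libraries farthest from the median the r was 0.48, 0.51, 0.39 and 0.55.

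Lifr and Stat3 ran against each other. Their r was -0.78 in tibialis anterior (n = 85, rho -0.64, permutation adjusted p = 8e-05), -0.56 in gastrocnemius (n = 73, rho -0.55, 8e-05), -0.44 in soleus (n = 84, rho -0.43, 0.0013) and -0.26 in diaphragm (n = 83, rho -0.15, 0.088). Leaving out the 2 farthest libraries gave -0.69, -0.52, -0.41 and -0.23. Il6st was tied to both in tibialis anterior, with r of -0.74 to Lifr and 0.69 to Stat3 (rho -0.57 and 0.59, permutation adjusted p = 8e-05 for each, and -0.65 and 0.63 without the 2 farthest libraries).

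**Figure D3:**
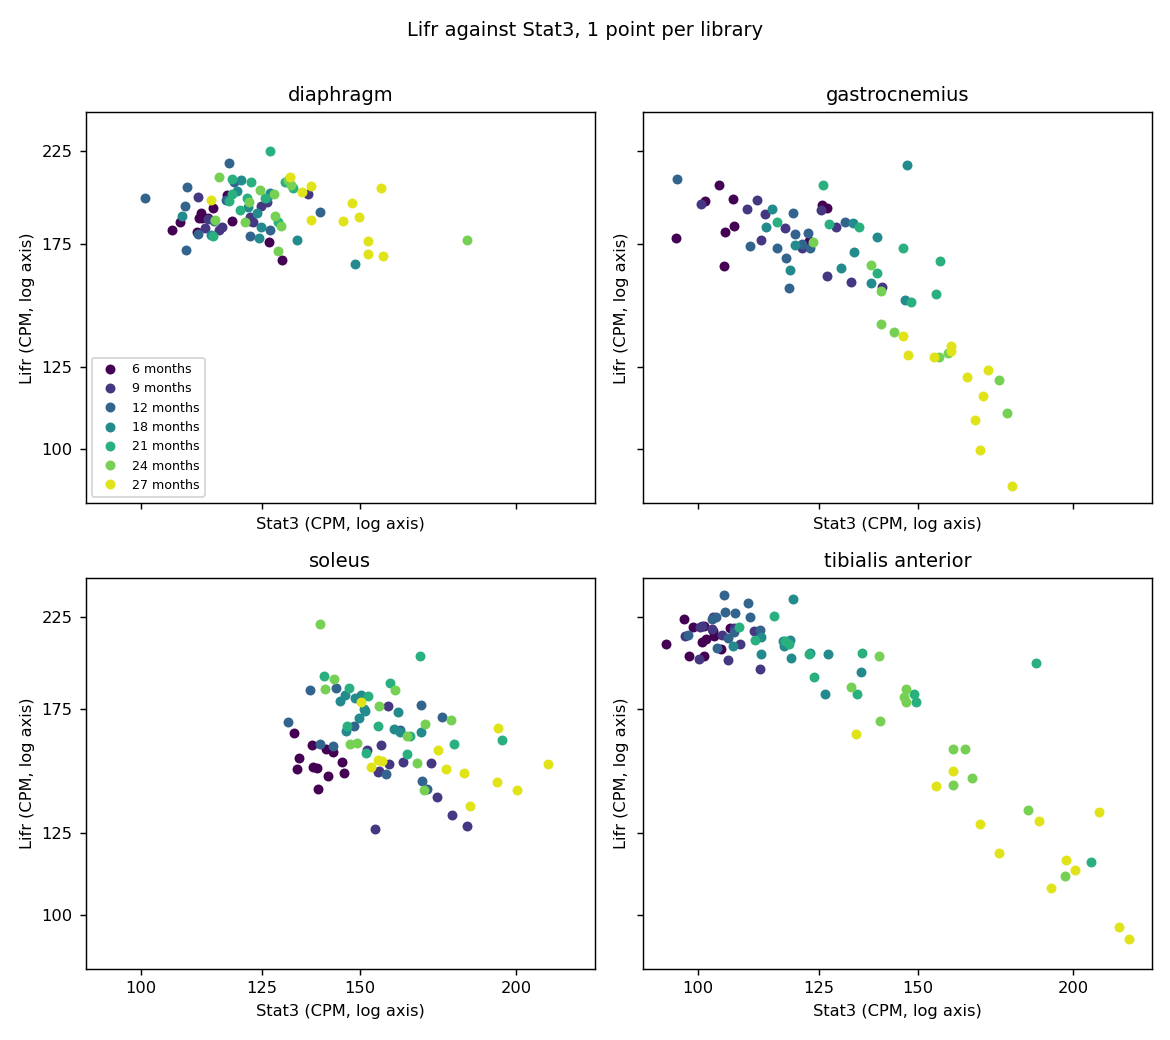
Lifr (y axis) against Stat3 (x axis), both in CPM on log axes, in 1 panel per muscle; each point is 1 library, and color is age from 6 (dark) to 27 months (yellow). In gastrocnemius and tibialis anterior the old libraries lie at high Stat3 and low Lifr, and within an age the r of the deviations was -0.56 and -0.78.

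Socs3 followed Stat3 with r of 0.35 in diaphragm, 0.33 in gastrocnemius and 0.52 in soleus (rho 0.20, 0.33 and 0.53, permutation adjusted p = 0.0094, 0.027 and 0.00015; 0.29, 0.33 and 0.47 without the 2 farthest libraries). In tibialis anterior this relation had an r of 0.27 and did not pass. Cebpb and Cebpd varied together in diaphragm (r 0.57), gastrocnemius (0.53) and tibialis anterior (0.59), with rho of 0.60, 0.54 and 0.62, permutation adjusted p of 8e-05 in each, and 0.61, 0.51 and 0.60 without the 2 farthest libraries; in soleus the r was 0.15. The r of a gene with log2 library total, which these libraries share, ran from -0.33 to 0.49, the highest for Cebpb in gastrocnemius, and its part in these relations was not tested.

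A few tibialis anterior libraries stood apart from their age group in several of these genes at once. At 21 months replicate 7 had 36.7 CPM of Osmr where the 12 others had 12.2 to 28.8, 116 CPM of Lifr where the others had 179 to 226, 207 CPM of Stat3 where they had 108 to 187, and 7.60 CPM of Socs3 where they had 0.771 to 3.44. Its Lifr and Stat3 lay inside the range of the libraries at 27 months. Its Osmr and Socs3 lay above that range, which ended at 29.2 and 7.43 CPM. Replicate 9 at 27 months stood on the other side, with 458 CPM of Il6st (others 516 to 780), 164 CPM of Lifr (others 93.5 to 148) and 134 CPM of Stat3 (others 155 to 222). Without both libraries the same 5 genes were called at 27 months, with 0.64 for Il6st, 0.63 for Osmr, -0.83 for Lifr, 0.90 for Stat3 and 0.68 for Socs3. The r of Lifr and Stat3 in tibialis anterior was then -0.67, that of Il6st and Lifr -0.70 and that of Il6st and Stat3 0.60.

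Both libraries also stood apart in Chrnd, the delta subunit of the acetylcholine receptor, which muscle fibres raise when they lose their nerve, and replicate 7 at 21 months did so in macrophage markers. Chrnd was 180 CPM in replicate 7 at 21 months (others 10.4 to 83.9) and 69.5 CPM in replicate 9 at 27 months (others 138 to 323). The summed level of the 8 macrophage genes was 202 CPM in the former (others 46.2 to 113) and 96.1 CPM in the latter, inside the range of the others (93.0 to 192). This look at Chrnd and the macrophage list was added after the data had been seen.

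Across all libraries of an age, Chrnd was related to 5 of the 8 genes in gastrocnemius, 5 in tibialis anterior and 0 in diaphragm and soleus (64 relations, permutation test, Benjamini-Hochberg adjusted p under 0.05). These include Il6 in gastrocnemius (r 0.30) and Socs3 in tibialis anterior (r 0.28). Neither passed by Spearman's rho (permutation adjusted p = 0.051 and 0.15), and without the 2 farthest libraries their r was 0.24 and 0.12. The share of all genes related to Chrnd was not tested. In tibialis anterior the r of Chrnd was -0.76 with Lifr, 0.69 with Stat3, 0.61 with Il6st and 0.51 with Osmr (rho -0.71, 0.56, 0.55 and 0.49, permutation adjusted p = 8e-05 for the first 3 and 0.0014 for Osmr). Without the 2 farthest libraries these were -0.69, 0.58, 0.57 and 0.38. In gastrocnemius they were -0.38, 0.52, 0.62 and 0.43 (rho -0.36, 0.49, 0.49 and 0.40, permutation adjusted p = 0.012, 8e-05, 8e-05 and 0.00059; -0.35, 0.46, 0.56 and 0.39 without the 2 farthest). Median Chrnd went from 6.66 to 213 CPM in tibialis anterior and from 10.1 to 107 CPM in gastrocnemius between 6 and 27 months, from 42.7 to 117 CPM in soleus and from 18.2 to 63.2 CPM in diaphragm.

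At 27 months 17.2, 15.1, 9.21 and 3.27% of all genes were called higher in tibialis anterior, gastrocnemius, soleus and diaphragm. Of the 8 macrophage genes, 7, 7, 1 and 0 were called higher in these muscles, and none was lower. Their summed level went from 44.0 to 69.3 CPM at 6 months to 93.0 to 192 CPM at 27 months in tibialis anterior, and from 92.8 to 164 CPM to 176 to 307 CPM in gastrocnemius. The fewest counts of any marker in any library were 26, of Cd14. Between libraries of an age the list was related to Lifr with r of -0.58 in tibialis anterior, -0.33 in gastrocnemius, -0.46 in soleus and -0.36 in diaphragm (rho -0.42, -0.34, -0.49 and -0.38, permutation adjusted p = 8e-05, 0.016, 0.00019 and 0.0055; -0.45, -0.36, -0.41 and -0.39 without the 2 farthest). It was related to Stat3 with r of 0.58 in tibialis anterior, 0.47 in gastrocnemius and 0.30 in soleus (rho 0.40, 0.45 and 0.25). The permutation adjusted p of r was 8e-05, 0.00052 and 0.016, but soleus did not pass by rho (0.054). Without the 2 farthest libraries the r was 0.48, 0.44 and 0.22. In diaphragm it was 0.28 (permutation adjusted p = 0.053). By r the list was related to 4 of the 8 genes in tibialis anterior, 7 in gastrocnemius, 5 in soleus and 2 in diaphragm. The share of all genes related to it was not tested. The part of macrophages in the changes above was not tested either.

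For each gene the 3 others that deviated most like it from group means were sought among 11517 genes tested in all muscles, by the mean of the 4 within-muscle r over all libraries; this is a description with no test, and Il6 was not among them. Lifr was most like Asb14, a ubiquitin ligase subunit of muscle (0.72), the vascular receptor Adgrf5 (0.70) and the calcineurin subunit Ppp3cc (0.69). Stat3 was most like Tnfaip2 (0.61), Lmna, which encodes the nuclear lamins A and C (0.61), and Vat1 (0.60). For Il6st these were Slc44a1 (0.72), Ltbp1 (0.72) and Me2 (0.71), and for Osmr Pabpc1 (0.68), Fgl2 (0.66) and Cpne8 (0.64). For Socs3, the cytokine-induced inhibitor Cish (0.50) and Enc1 (0.48) were among its 3. Cebpb had Map1lc3a (0.52), Pim3 (0.50) and Scand1 (0.49). Cebpd was closest to Nfkbia, the inhibitor of NF-kappaB (0.74), the stress gene Ddit4 (0.67) and Slc25a25 (0.63).

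The wider pathway was taken from lists. Among the 5 other ligands of the family that passed the filter, of 8 listed in the files, Ebi3 rose in soleus (2.05) from a median of 0.0929 to 0.373 CPM and fell in gastrocnemius (-0.63), and Cntf, the ciliary neurotrophic factor, fell in tibialis anterior (-0.59). Clcf1 was not called, at most 0.38. Diaphragm had no call. The median change of the 5 was 0.08 in diaphragm, -0.04 in gastrocnemius, 0.38 in soleus and -0.26 in tibialis anterior, and the median of all genes tested was 0.00, 0.04, 0.02 and 0.02.

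Of the 3 other receptor genes that passed, of 5 in the files, Cntfr, the receptor for ciliary neurotrophic factor, rose in all limb muscles. Its median went from 20.4 to 55.7 CPM in tibialis anterior (1.53), from 9.18 to 25.2 CPM in soleus (1.41) and from 37.8 to 51.6 CPM in gastrocnemius (0.72), with adjusted p of at most 4.2e-04. Il6r, the receptor chain specific for IL-6, rose in soleus (0.68, adjusted p = 1.5e-08, from 23.6 to 36.6 CPM) and was at 0.54 in diaphragm, -0.16 in gastrocnemius and -0.23 in tibialis anterior with no call. Il11ra1 was called in no muscle (-0.01 to 0.17). The list's median was 0.43, 0.13, 0.68 and 0.17 in diaphragm, gastrocnemius, soleus and tibialis anterior.

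Of 11 kinases, other Stats and inhibitors, the phosphatase Ptpn6 rose in gastrocnemius (0.78), soleus (0.72) and tibialis anterior (1.12), and the kinase Jak2 rose in soleus (0.76). Ptpn11, the phosphatase that gp130 recruits, fell in tibialis anterior (-0.88, adjusted p = 2.0e-19), from a median of 590 to 315 CPM. Socs1 was called in no muscle and its lowest value was -0.49 in gastrocnemius. The counts of calls were 0 in diaphragm, 1 in gastrocnemius, 2 in soleus and 2 in tibialis anterior, where 7.52, 22.8, 15.0 and 27.6% of all genes were called, with list medians of -0.11, 0.08, 0.02 and 0.08. Of 3 other C/EBP genes that passed the filter, Cebpa, known for its role in fat cells, rose in soleus (1.20) and tibialis anterior (1.44). All 4 adipocyte markers rose in these muscles and also in gastrocnemius, where none of the 3 C/EBP genes was called (at most 0.54). The part of fat cells was not tested. Cebpg and Cebpz were not called, with lowest values of -0.55 and -0.47. The median of these 3 was -0.23, 0.29, -0.19 and -0.31 in diaphragm, gastrocnemius, soleus and tibialis anterior.

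Genes known as Stat3 targets were counted in the same way. Of 24, the number called higher at 27 months was 13 in tibialis anterior, 10 in gastrocnemius, 6 in soleus and 2 in diaphragm, where 17.2, 15.1, 9.21 and 3.27% of all genes were called higher. The number called lower was 2, 0, 1 and 0, beside 10.4, 7.76, 5.78 and 4.25% of all genes. The median change of the list was 0.67, 0.44, 0.36 and 0.15, beside 0.02, 0.04, 0.02 and 0.00 for all genes tested.

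Of these targets, A2m, an acute-phase protease inhibitor counted on 2 lines that were added up, rose in every muscle by 1.77 in diaphragm, 3.15 in gastrocnemius, 2.12 in soleus and 3.26 in tibialis anterior. Its medians were low, from 0.160 to 1.40 CPM in tibialis anterior. Cdkn1a, the cell cycle inhibitor p21, which p53 also drives, rose by 1.60, 4.44, 4.76 and 5.33 with the muscles in this order, and its median went from 19.0 to 726 CPM in tibialis anterior. The transcription factor genes Junb (1.72, 1.41 and 1.91), Myc (2.14, 1.09 and 2.12) and Bcl3 (1.14, 1.25 and 1.28) and the acute-phase gene Serpina3n (1.00, 0.68 and 1.26) rose in gastrocnemius, soleus and tibialis anterior.

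Timp1 (1.09 and 1.53), which inhibits matrix proteases, and Fgl2 (0.85 and 0.82) rose in gastrocnemius and tibialis anterior. So did the chemokine gene Ccl2, from a median of 0.811 to 2.18 CPM in gastrocnemius and from 0.920 to 1.94 CPM in tibialis anterior (1.08). Il4r rose in tibialis anterior (0.87), and the acute-phase gene Hp was called in gastrocnemius (0.69), while its soleus value of -1.07 was not called. Vegfa, a growth factor for vessels, fell in soleus (-0.65) and tibialis anterior (-0.86), and Pim1, a kinase gene, fell in tibialis anterior (-0.89).

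**Figure D4:**
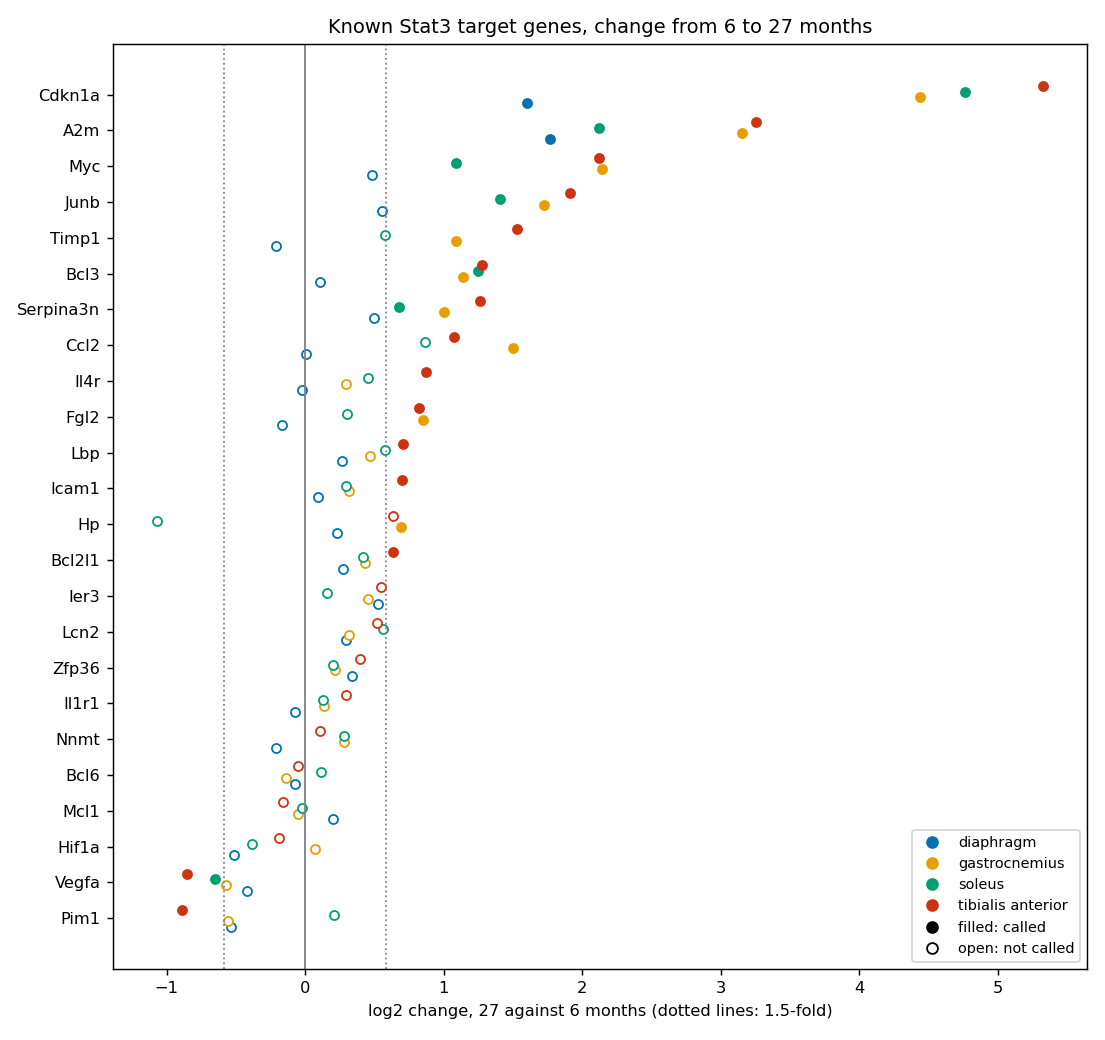
Change of 24 known Stat3 target genes (y axis) from 6 to 27 months on the log2 scale (x axis), by muscle (color); filled points were called, and dotted lines mark 1.5-fold. Cdkn1a lies farthest right in the limb muscles, at 5.33 in tibialis anterior, A2m does so in diaphragm at 1.77, and Pim1 and Vegfa are the genes called lower.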

How the data were processed

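Strand-specific total RNA libraries were made from muscle kept in RNAlater after removal of ribosomal RNA and sequenced as read pairs. The authors obtained raw counts per gene with ArrayStudio (version not given in the sources used here) on the rat B6.0 reference with an in-house gene model based on RefSeq, and deposited these counts without normalization, 1 table per library. Of 17870 lines per table, those that share a symbol were added up, which left 17315 symbols.

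Counts were analysed with limma 3.58.1 and edgeR 4.0.16 in R 4.3.3. Genes were filtered with filterByExpr (minimum count 10), scaled by TMM, and fitted with voom in 1 fit per muscle over all ages, and in 1 fit over 28 groups for differences between muscles; tests were two-sided. Trends needed a criterion at least 6 below the flat curve, and logistic ones 2 below the straight line. The scripts were tested on simulated counts. Levels are CPM on the TMM scale. Alternatives were edgeR's quasi-likelihood test, DESeq2 1.42.0, RLE and total-count scaling, no filter, sample quality weights, Bonferroni adjustment and the replicate number as a block; leaving out single libraries was added after the data had been seen. Groups came from the sample titles; no 2 libraries had identical counts. The labels do not tie libraries to animals, so p-values measure the spread between libraries.

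The 8 genes, the pathway and marker lists and the tests were chosen with earlier results of these data known. Of the other listed genes, those called at 27 months in 2 or more muscles and up to 3 more per list by size of change are named. Intervals and SE come from the fits and include the spread between libraries, and the limit for a count of 0 covers counting error only. Results for a few listed genes are not reported here.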

Additional observations from a re-analysis of the deposited data

Results flagged for a closer look

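In gastrocnemius at 24 months, Socs3 in replicate 2 stood apart at the low end, with 1.00 CPM where the nearest of the other 8 libraries had 2.24 CPM, on the log2 CPM scale a gap of 0.506 of the group's whole range by Dixon's test. It was the one library that passed among the 24 sets of values tested, in the groups of 4 to 10 libraries, and chance alone marks about 1 in 20.

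The change from 6 to 27 months differed between muscles for Cebpd and Lifr by a test of the difference itself in limma-voom. For Cebpd the difference was -0.85 on the log2 scale for gastrocnemius minus diaphragm, -0.86 for tibialis anterior minus diaphragm, 0.84 for soleus minus gastrocnemius and -0.84 for tibialis anterior minus soleus. For Lifr the same differences were -0.69, -0.84, 0.65 and -0.79. With Bonferroni adjustment those of Lifr stayed called and those of Cebpd did not. All libraries of gastrocnemius are in 1 series of running numbers, so its differences from other muscles cannot be told apart from that series.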

How the results depend on the processing

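Over all alternatives and single libraries left out, 180 of the main counts were classed as the same as or close to the main result, and 38 as moved. The other results were values for single genes and pairs and counts for the other gene lists. Of these, 1507 were classed as the same and 63, all counts, as moved. A further 66 were weaker, 13 stronger and 11 reversed. Directions turned for 4 of the changes at 27 months, none of them called. Diaphragm Il6st was 0.0137 with total-count scaling. Diaphragm Lifr was 0.00014 by edgeR, 0.0094 by DESeq2, 0.0075 with RLE factors, 0.038 with total-count scaling, 0.0059 with no filter and 0.012 with quality weights. Gastrocnemius Socs3 was -0.11 by edgeR and -0.13 by DESeq2. Soleus Lifr was -0.0052 with quality weights and, with single libraries left out, from -0.0125 (without 27-month replicate 9) to 0.0206.

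Of the 8 genes, the number called at 27 months in gastrocnemius was 3 with total-count scaling, 2 with no filter and 2 with quality weights, and 1 to 3 with single libraries left out. In soleus it was 1 by edgeR, 1 by DESeq2 and 0 with Bonferroni adjustment, and 1 to 2 with single libraries left out. In tibialis anterior it was 4 where the Socs3 call was lost, by edgeR and DESeq2 and with quality weights, Bonferroni adjustment or the block. It stayed 5 with no filter, with Il6 in place of Socs3, and with total-count scaling, with Cebpb in place of Lifr. It was 2 to 5 with single libraries left out, the lowest without 27-month replicate 6. With total-count scaling the number with a trend was 1 in soleus, 4 in tibialis anterior and 3 in gastrocnemius, without Lifr and Cebpd. For the difference between muscles it was 1 (Lifr, without Cebpd) with Bonferroni adjustment in gastrocnemius minus diaphragm, soleus minus gastrocnemius, tibialis anterior minus diaphragm and tibialis anterior minus soleus. With total-count scaling it was 1 in soleus minus diaphragm, 1 in soleus minus gastrocnemius and 4 in tibialis anterior minus diaphragm, where DESeq2 also gave 4. At 6 months it was 1 by edgeR and 1 by DESeq2 in tibialis anterior minus gastrocnemius and 5 with total-count scaling in tibialis anterior minus soleus. Total-count scaling gave 15 pairs that varied together in gastrocnemius and 15 in tibialis anterior. The cause was not tested for any of these.

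With the replicate number as a block, soleus had 1 gene called at 27 months and soleus minus diaphragm had 1. Libraries of 2 muscles at 1 age with the same number had a mean correlation of 0.083 in their deviations, against -0.0079 for other numbers. There were 468 such pairs, with a lowest value of -0.46, and 165 correlated best with their own number. Chance alone would give about 1 such match in each of the 42 combinations of muscles and age. The excess is a sign of pairing in part of the data that the labels do not give. In soleus and tibialis anterior at 9 months 11 of 12 correlated best with their own number, and in diaphragm and soleus at 12 months 0 of 12. Every pair was over 0.1 in 0 of 42 combinations of muscles and age, so the libraries were not treated as paired. A single noisy pair fails this rule, so it cannot show that the muscles came from different animals. The tests of differences between muscles took the libraries as independent, which does not hold where an animal is shared. Low counts limit Il6 and Socs3.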

Other observations

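Immediate early genes, which respond within minutes to a stimulus or to handling of the tissue, were called higher at 27 months for 6 of 10 in gastrocnemius, 4 in soleus, 5 in tibialis anterior and 0 in diaphragm, and lower for 0, 0, 1 and 1. Of all genes 15.1, 9.21, 17.2 and 3.27% were called higher and 7.76, 5.78, 10.4 and 4.25% lower. Their median change was 0.92, 0.64, 0.61 and -0.00, beside 0.04, 0.02, 0.02 and 0.00 for all genes tested. Egr2 rose by 1.37, 1.15 and 0.95 in gastrocnemius, soleus and tibialis anterior, and Atf3 rose there too, by 1.80 and 1.27 in gastrocnemius and tibialis anterior and from a median of 9.57 to 24.4 CPM in soleus. Egr1 (1.10 and 1.04) and Egr3 (1.04 and 1.20) rose in gastrocnemius and tibialis anterior, Fos in gastrocnemius (0.96) and soleus (0.92), Jun in soleus (0.70) and tibialis anterior (0.63), and Btg2 in gastrocnemius (0.88). Fosb fell in diaphragm (-0.96), and Dusp1, a phosphatase gene, fell in tibialis anterior (-0.77).

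Known glucocorticoid targets were called higher at 27 months for 2 of 9 in diaphragm, 3 in gastrocnemius, 3 in soleus and 4 in tibialis anterior, and lower for 0, 1, 0 and 3 (of all genes, 3.27, 15.1, 9.21 and 17.2% higher and 4.25, 7.76, 5.78 and 10.4% lower), with median changes of 0.20, 0.21, 0.12 and 0.24. The metallothionein gene Mt2A rose in all 4 muscles (1.40, 3.04, 3.03 and 3.98). The clock gene Per1 rose in diaphragm (1.30), soleus (0.70) and tibialis anterior (0.89), and the kinase gene Sgk1 in gastrocnemius (0.85), soleus (0.70) and tibialis anterior (1.17). Errfi1 rose in gastrocnemius (0.60) and tibialis anterior (0.63). Fkbp5, whose product restrains the glucocorticoid receptor, fell in gastrocnemius (-1.17) and, from a median of 32.8 to 18.0 CPM, in tibialis anterior. Tsc22d3 (-0.77) and Zbtb16 (-0.72) fell in tibialis anterior, and Klf15 was called in no muscle (0.12 to 0.44).

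Among markers of other cells at 27 months, all 4 adipocyte genes were called higher in gastrocnemius, soleus and tibialis anterior and 0 in diaphragm. Of all genes, 3.27, 15.1, 9.21 and 17.2% were called higher in diaphragm, gastrocnemius, soleus and tibialis anterior. The shares called lower were 4.25, 7.76, 5.78 and 10.4% in this order. Of the neutrophil genes that passed the filter, 3 of 3 were higher in diaphragm, 2 of 2 in gastrocnemius, 0 of 3 in soleus and 2 of 2 in tibialis anterior. T cell genes were higher for 2 of 4 in diaphragm, 1 of 2 in gastrocnemius, 1 of 2 in soleus and 2 of 2 in tibialis anterior. Of 6 fibroblast genes 3 were lower in diaphragm, 1 in gastrocnemius, 1 in soleus and 0 in tibialis anterior, among them the collagen gene Col1a1 in the first 3 muscles. Of 6 endothelial genes, Flt1 fell in gastrocnemius (-0.75) and tibialis anterior (-0.63). Of 4 satellite cell genes, Myf5 rose in gastrocnemius (2.35), soleus (0.74) and tibialis anterior (2.41), and Cdh15 rose in soleus (0.77) and fell in tibialis anterior (-0.60). Of 5 Schwann cell genes 1 was higher and 2 were lower in gastrocnemius, 1 was higher in soleus and 2 were higher in tibialis anterior. Neither of the 2 red blood cell genes in the files was called. Of 6 muscle fibre genes 1 was higher in diaphragm and 2 in soleus, and 2 were lower in gastrocnemius and 3 in tibialis anterior.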
